A study of Mus musculus with 6 samples.

Results

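The MHC and antigen presentation genes are the parts of the machinery that shows peptides to T cells: 38 genes were listed, 17 of class II and 21 of class I, the latter including the class I-like Cd1d1 and Mr1. A gene was measured where a probe set of the array carried its symbol alone, and the brightest such probe set over the 6 arrays stood for it. This gave 33 genes, 15 of class II and 18 of class I, out of 19938 genes named in the same way. H2-K1, H2-D1, H2-T23, H2-DMb1 and H2-DMb2 had only probe sets that name several genes, and no value is given for them. The cells were B cell precursors of 129SvEv mice, labelled as transformed by BCR-ABL1, the kinase fusion of Philadelphia chromosome-positive acute lymphoblastic leukemia (ALL). They came from mice that were wild type for Etv5, an ETS-family transcription factor (ETV5 WT, 3 samples), or that lacked it (ETV5 KO, 3 samples). Both genotypes carried BCR-ABL1. The labels used here give no age of the mice, do not describe the knockout allele or the vector, and do not tell whether the 3 samples per genotype were taken from different animals or cultures. The p-values therefore reflect sample-to-sample spread alone, and this could be technical.

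Class I molecules, a heavy chain with beta-2-microglobulin, carry peptides that the proteasome cuts in the cytosol and that the TAP transporter moves into the endoplasmic reticulum, where tapasin and chaperones load them. Class II molecules carry peptides cut in endosomes: the invariant chain Cd74 fills their groove, proteases such as cathepsin S remove it, and H2-DM exchanges what is left for other peptides, restrained by H2-O. Class II genes are driven by CIITA, which is recruited by RFX and NF-Y proteins at the X and Y boxes of their promoters. NLRC5 plays the same part for class I genes. Early B cell precursors of the mouse are known for little class II on their surface, which increases as B cells mature.

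Signals are log2 values of RMA, an array summary that corrects background and normalizes between arrays, so that a difference of 1 is a doubling. All 6 arrays had 35556 probe sets, with array medians from 7.79 to 7.84. Of 12 measured B cell precursor markers, among them Cd79a, Igll1 and Ebf1, all lay above 7.29, the level under which 95% of 1015 olfactory receptor genes fell. This level served as a rough guide to dim signal, since the table holds no detection calls. The platform annotation assigns a pair of probe sets to the knocked-out gene itself. One gave 9.30, 9.52 and 9.27 in wild-type cells against 8.97, 8.91 and 8.92 in knockout cells, a difference of -0.43 (limma adjusted p = 0.0467). The other gave 11.48, 11.52 and 11.46 in wild-type cells against 11.67, 11.88 and 11.73 in knockout cells, a difference of 0.28 (adjusted p = 0.13). All knockout samples were lower on the first and higher on the second, and both kept a signal above the dim range in the knockout. Where their probes lie in relation to the deletion is not given in the sources used here, and whether both read RNA of Etv5 was not tested.

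Knockout means were higher for 11 of 15 class II genes, for 7 of 18 class I genes and for 9603 of all 19938 genes. By limma with Benjamini-Hochberg adjustment over all probe sets at 0.05, H2-Ob, a subunit of the class II inhibitor H2-O, and Ctss, encoding cathepsin S, rose, and Tapbp, encoding tapasin, fell. These are 2 of 15 class II genes higher, 0 of 15 lower, 0 of 18 class I genes higher and 1 of 18 lower; 30 of the 33 genes did not pass. Over all genes 4.43% passed, 2.42% higher and 2.01% lower (3.08% of all probe sets), and counts of 1 and 2 members are not read here as shares above or below that background. At an unadjusted limma p under 0.05, 7 class II genes were higher and 1 lower, and 3 class I genes were higher and 3 lower, beside 7.2% of all genes higher and 6.25% lower. In 9 of 15 class II genes the genotypes did not overlap, 8 of them being higher, and in 10 of 18 class I genes, 4 higher and 6 lower; over all genes, 10.2% lay apart higher and 10.2% lower. The median difference was 0.16 for class II, -0.04 for class I and -0.004 for all genes. Over the alternative settings tried, the number of members called ran from 1 to 6 in class II and from 0 to 3 in class I. In these bulk samples, fewer cells of a type and less RNA per cell cannot be told apart.

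**Figure D1:**
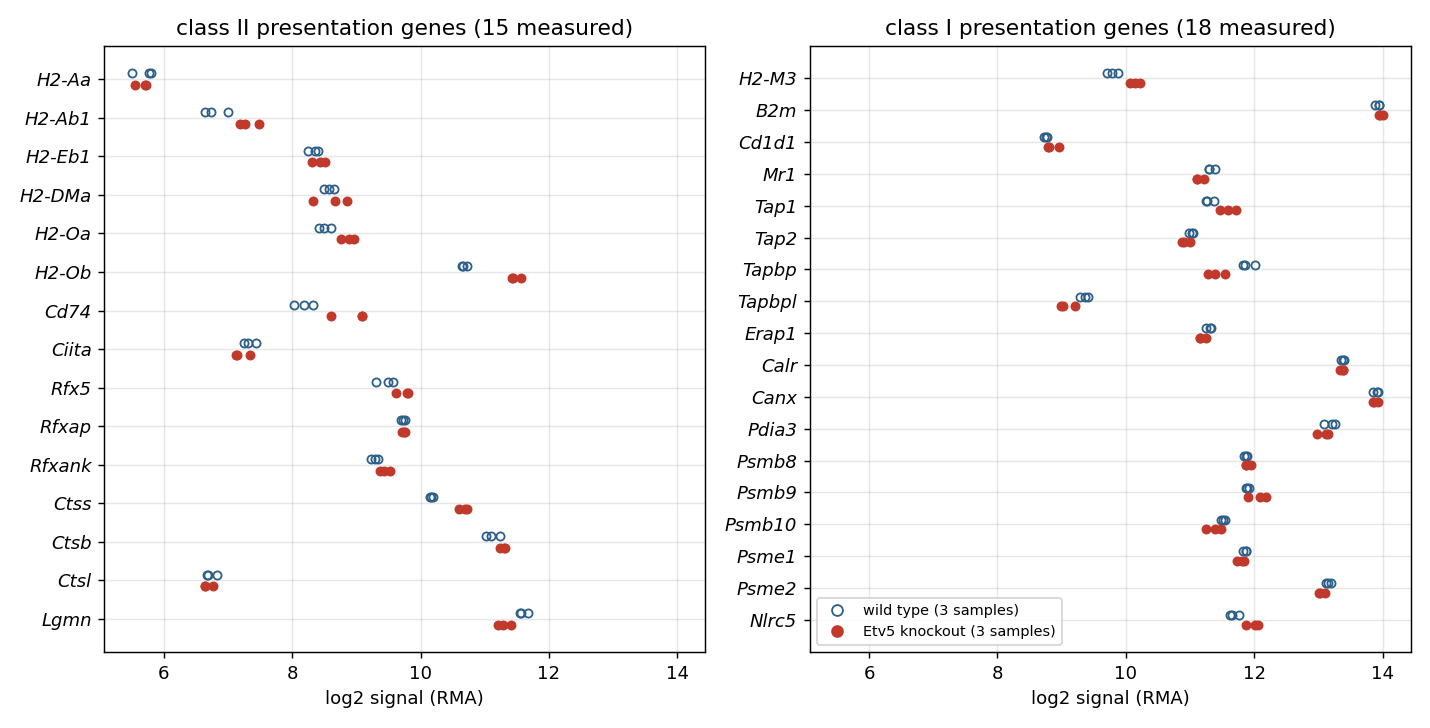
Log2 signal (RMA) of each measured presentation gene in each sample, class II on the left and class I on the right; open blue circles are the 3 wild-type samples and filled red circles the 3 Etv5 knockout samples. H2-Ob and Ctss show a clear gap between the genotypes, with all knockout samples higher, and Tapbp a gap with all knockout samples lower.

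**Figure D2:**
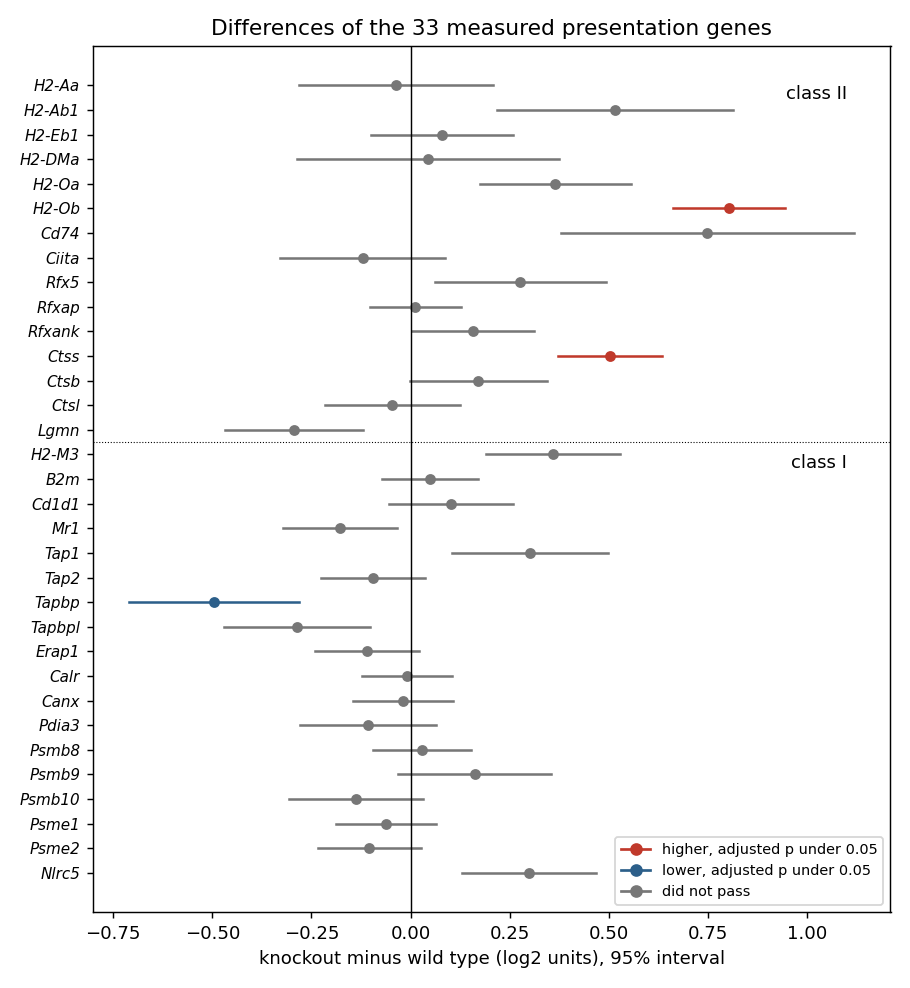
Difference knockout minus wild type in log2 units for the 33 measured genes, with the 95% interval of the limma fit; red marks genes called higher, blue genes called lower and grey genes that did not pass at an adjusted p of 0.05. The class II genes reach from -0.29 (Lgmn) to 0.80 (H2-Ob) and the class I genes from -0.50 (Tapbp) to 0.36 (H2-M3).

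Of the 3 measured classical class II chains, none passed limma, and 1 was higher at an unadjusted p under 0.05. H2-Aa, the alpha chain of H2-A, gave 5.81, 5.78 and 5.50 across the wild-type samples, against 5.70, 5.73 and 5.55 across the knockout samples. Its groups overlap and its signal lies among those of olfactory receptor genes, so it was not shown to be above background in either genotype. H2-Ab1, the beta chain that pairs with it, gave 6.74, 7.01 and 6.64 in wild-type cells against 7.18, 7.26 and 7.49 in knockout cells. All its knockout values were higher, by 0.51 ± 0.12 (SE, log2), but its limma adjusted p was 0.12 and its mean over the 6 arrays, 7.05, was also within the dim range. H2-Eb1, the beta chain of H2-E, gave 8.41, 8.25 and 8.36 across the wild-type samples, against 8.51, 8.43 and 8.31 across the knockout samples. Its groups overlap, and the difference was 0.08 with a 95% interval from -0.10 to 0.26.

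Of the 4 measured genes of peptide exchange and the invariant chain, 1 rose, 0 fell and 3 did not pass. H2-Ob rose 1.74-fold. It gave 10.66, 10.64 and 10.72 in wild-type cells against 11.43, 11.56 and 11.44 in knockout cells, that is 10.67 ± 0.039 against 11.48 ± 0.072 (SD, n = 3 each). The gap between the groups was wide beside the spread within them, and the log2 difference of 0.80 ± 0.058 (SE) had a limma adjusted p of 0.0014. The call held whichever of the 6 samples was left out (adjusted p 0.00678 to 0.0138). H2-Oa, the alpha chain that forms H2-O with it, gave 8.49, 8.41 and 8.61 across the wild-type samples, against 8.76, 8.88 and 8.96 across the knockout samples. The groups do not overlap, and the difference of 0.36 had a 95% interval from 0.17 to 0.56 and an adjusted p of 0.0837, which does not pass. H2-DMa, the alpha chain of the peptide exchanger that H2-O restrains, gave 8.57, 8.50 and 8.65 in wild-type cells against 8.32, 8.85 and 8.68 in knockout cells. Knockout sample 1 was its lowest sample and knockout sample 2 its highest, with a difference of 0.04 and a 95% interval from -0.29 to 0.37.

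Cd74, the invariant chain, differed about as much as H2-Ob but with a larger spread. It gave 8.18, 8.03 and 8.33 across the wild-type samples, against 8.61, 9.10 and 9.08 across the knockout samples. All knockout samples were higher than all wild-type samples, and knockout sample 1 stood closer to the wild type than the other knockout samples. The difference of 0.75 ± 0.15 (SE, log2; 1.68-fold) did not pass (limma adjusted p = 0.0686). Without knockout sample 1 it was 0.91 and passed (adjusted p = 0.0174). In the 5 fits that left out any other single sample it did not pass.

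None of the 4 class II transcription factors passed limma, and 2 were higher at an unadjusted p under 0.05. Ciita, the class II transactivator, gave 7.31, 7.44 and 7.24 in wild-type cells against 7.35, 7.13 and 7.15 in knockout cells. Its groups overlap, its mean of 7.27 is within the dim range, and the difference was -0.12 with a 95% interval from -0.33 to 0.09 (limma adjusted p = 0.777). Rfx5, the DNA-binding subunit of RFX, gave 9.49, 9.31 and 9.57 across the wild-type samples, against 9.62, 9.80 and 9.78 across the knockout samples. The groups lie apart, with a difference of 0.28 and an adjusted p of 0.276. Rfxank, another RFX subunit, gave 9.22, 9.29 and 9.34 against 9.37, 9.52 and 9.44. It also lay apart, with a difference of 0.16 (adjusted p = 0.442), and the third subunit gene, Rfxap, differed by 0.01 (95% interval -0.10 to 0.13).

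Among the 4 endosomal proteases, 1 rose, 0 fell and 3 did not pass. Ctss, which cuts the invariant chain in B cells, gave 10.19, 10.16 and 10.15 in wild-type cells against 10.59, 10.72 and 10.69 in knockout cells. The groups stood well apart, and Ctss rose by 0.50 ± 0.054 (SE, log2; 1.42-fold, limma adjusted p = 0.00611), and the call held whichever of the 6 samples was left out (adjusted p 0.0132 to 0.0408). Lgmn, the asparagine endopeptidase, gave 11.56, 11.55 and 11.68 across the wild-type samples, against 11.21, 11.41 and 11.29 across the knockout samples. All its knockout values were lower (log2 difference -0.29, 95% interval -0.47 to -0.12), without passing (adjusted p = 0.127). Ctsb, a cathepsin of lysosomes, gave 11.02, 11.10 and 11.24 against 11.24, 11.32 and 11.30. Its highest wild-type and lowest knockout values nearly touch, and the difference of 0.17 did not pass (adjusted p = 0.466). Ctsl, another cathepsin, lay in the dim range and differed by -0.05 (95% interval -0.22 to 0.12).

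Promoter sequences were compared because CIITA acts through boxes that class II genes share. Of the 38 members, 29 had a window in RefSeq's promoter table (GRCm38.p6), taken here as the 250 bases before the gene's start. The letters searched on both strands were AGNAAC followed by NN and then ATG for the core of an X box, GATTGG for the core of a Y box, GAAA followed by NN and then GAAA for the core of an interferon-stimulated response element, and CCGGAAG for an ETS site. None of these overlaps another in the windows shown. Of 32851 such windows, 0.715% held the X core, 14.6% the Y core, 2.98% the interferon core and 6.91% the ETS site. The promoters of H2-Ob and H2-Eb2, which rose, and of H2-Eb1, which did not pass, are shown because they hold the same pair of boxes; Ctss is shown as the risen protease and Tapbp as the fallen class I gene. Capitals mark the matches. The windows are chr17:34238655-34238904 for H2-Ob, chr17:34305617-34305866 for H2-Eb1, chr17:34325425-34325674 for H2-Eb2, chr3:95526536-95526785 for Ctss and chr17:33919228-33919477 for Tapbp, all on the plus strand.
H2-Ob: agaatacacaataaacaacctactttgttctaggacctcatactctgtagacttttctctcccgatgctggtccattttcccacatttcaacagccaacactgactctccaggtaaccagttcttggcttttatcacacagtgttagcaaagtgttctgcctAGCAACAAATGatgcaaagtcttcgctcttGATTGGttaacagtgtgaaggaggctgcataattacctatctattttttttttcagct
H2-Eb1: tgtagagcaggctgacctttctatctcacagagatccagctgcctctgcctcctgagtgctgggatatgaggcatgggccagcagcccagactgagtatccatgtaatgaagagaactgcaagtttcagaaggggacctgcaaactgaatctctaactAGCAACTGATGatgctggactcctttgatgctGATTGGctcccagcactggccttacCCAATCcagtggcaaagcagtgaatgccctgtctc
H2-Eb2: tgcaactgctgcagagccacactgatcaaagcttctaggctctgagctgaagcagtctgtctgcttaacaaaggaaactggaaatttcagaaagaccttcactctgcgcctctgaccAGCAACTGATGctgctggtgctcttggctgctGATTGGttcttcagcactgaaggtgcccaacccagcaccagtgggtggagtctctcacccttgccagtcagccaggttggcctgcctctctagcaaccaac
Ctss: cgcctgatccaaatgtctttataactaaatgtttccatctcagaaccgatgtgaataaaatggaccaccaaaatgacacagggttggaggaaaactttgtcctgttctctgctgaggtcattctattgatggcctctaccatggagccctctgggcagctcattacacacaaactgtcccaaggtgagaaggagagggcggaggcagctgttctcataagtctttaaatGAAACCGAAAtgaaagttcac
Tapbp: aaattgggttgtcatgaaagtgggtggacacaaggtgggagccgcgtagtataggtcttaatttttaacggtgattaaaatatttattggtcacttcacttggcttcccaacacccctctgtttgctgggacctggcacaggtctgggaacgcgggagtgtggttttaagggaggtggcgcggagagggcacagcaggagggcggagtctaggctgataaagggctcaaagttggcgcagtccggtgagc

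The X core began 88 bases before the start in H2-Ob, 92 in H2-Eb1 and 133 in H2-Eb2, and a Y core followed with its start 30, 32 and 32 bases further on. Across all 32851 windows, an X core followed by a Y core with starts 25 to 40 bases apart stood in 5, those of H2-Ob, H2-Eb1, H2-Eb2, H2-DMb1 (33 bases) and Ankrd39 (31 bases); this spacing was chosen after the sequences were seen. The differences of the 3 genes shown with this pair were 0.80 (H2-Ob), 0.53 (H2-Eb2) and 0.08 (H2-Eb1). Whether the boxes bear on these differences was not tested. Ctss had an interferon core 21 bases before its start. Tapbp held none of the 4 motifs. Over the 29 members with a window, 4 held an X core (H2-Ob, H2-Eb1, H2-DMb1 and Mr1) and 17 a Y core. The interferon core stood in 3 (Ctss, B2m and H2-T23) and the ETS site in 1 (H2-DMa). A match is a run of letters and was not tested as a binding site. A window without a match was not shown to lack the box, since other spellings were not searched.

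The measured class I chains among the members, B2m and H2-M3, and the regulator Nlrc5 were bright or moderate in both genotypes. The heavy chain genes H2-K1, H2-D1 and H2-T23 have no value here. B2m, the light chain shared by all class I molecules, gave 13.95, 13.95 and 13.88 in wild-type cells against 13.97, 13.95 and 14.01 in knockout cells. The groups overlap near the top of the array's range, and the difference was 0.05 (95% interval -0.07 to 0.17). H2-M3, which presents formylated bacterial peptides, gave 9.79, 9.70 and 9.87 across the wild-type samples, against 10.07, 10.22 and 10.15 across the knockout samples. Its groups lie apart, but the difference of 0.36 ± 0.069 (SE, log2) had a limma adjusted p of 0.0562, just above the threshold. Cd1d1, which presents lipids to NKT cells, gave 8.72, 8.75 and 8.77 against 8.79, 8.97 and 8.80. Mr1, which presents vitamin B metabolites, gave 11.29, 11.30 and 11.39 against 11.11, 11.22 and 11.11. Cd1d1 was thus higher by 0.10 and Mr1 lower, at -0.18, each with groups that lie apart and neither passing (adjusted p = 0.733 and 0.304).

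Nlrc5, the class I transactivator, is covered by 19 probe sets, where each other measured member has 1. On the brightest it gave 11.63, 11.65 and 11.77 in wild-type cells against 11.88, 12.01 and 12.05 in knockout cells. The groups lie apart, with a difference of 0.30 ± 0.070 (SE, log2) that did not pass (limma adjusted p = 0.112). All 19 probe sets had a higher mean in the knockout, with differences from 0.06 to 0.30 and a median of 0.19, and in 11 of them the groups did not overlap. By limma 0 of the 19 passed and 10 had an unadjusted p under 0.05 (adjusted p 0.0786 to 0.865). Over all genes, 7.2% were higher at an unadjusted limma p under 0.05, and 10.2% lay apart higher. The probe sets of Nlrc5 measure the same RNA on the same arrays and are not replicates, so their counts are not read against these shares.

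**Figure D3:**
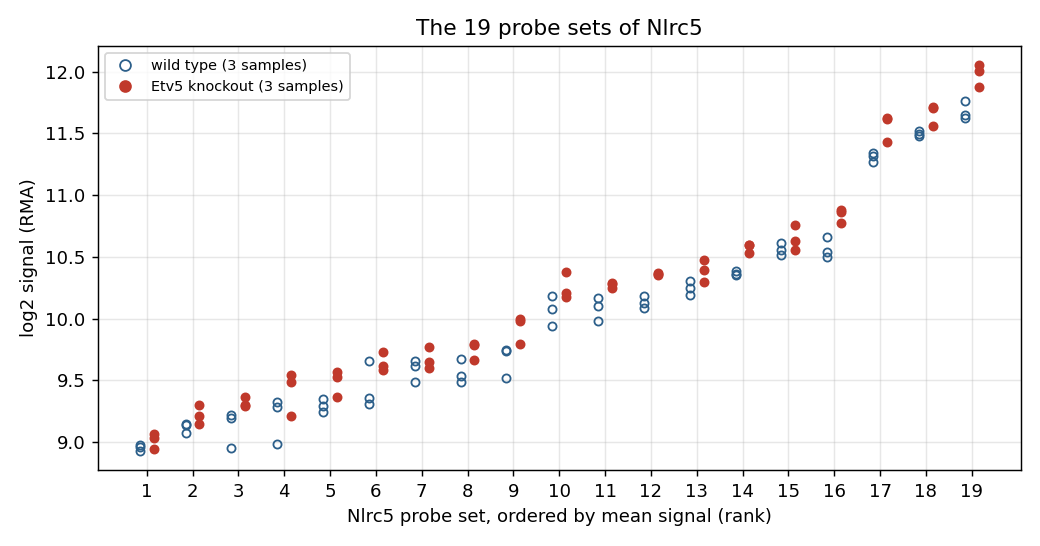
Log2 signal (RMA) of the 19 probe sets of Nlrc5, ordered by mean signal along the horizontal axis; open blue circles are the 3 wild-type samples and filled red circles the 3 knockout samples. The knockout mean is higher in all 19, by 0.06 to 0.30.

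Of 8 measured genes of peptide transport and loading, 1 fell, 0 rose and 7 did not pass. Tapbp (tapasin), which holds empty class I molecules to the TAP transporter, gave 11.83, 11.86 and 12.01 across the wild-type samples, against 11.28, 11.54 and 11.39 across the knockout samples. Every knockout value was below every wild-type value, and Tapbp fell by 0.50 on the log2 scale (difference -0.50 ± 0.088, SE; 1.41-fold; limma adjusted p = 0.0416). The call was close to the threshold: it held without knockout sample 2 (adjusted p = 0.048) and was lost without wild-type sample 1, 2 or 3 (0.117, 0.128 and 0.113) or knockout sample 1 or 3 (0.10 and 0.165). Tapbpl, the tapasin relative that edits class I peptides, gave 9.41, 9.29 and 9.37 in wild-type cells against 8.98, 9.20 and 9.02 in knockout cells. It lay apart in the same direction, at -0.29, without passing (adjusted p = 0.164).

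The transporter subunits Tap1 and Tap2 differed in sign. Tap1 gave 11.24, 11.26 and 11.37 across the wild-type samples, against 11.46, 11.72 and 11.60 across the knockout samples, and its groups lie apart (difference 0.30, 95% interval 0.10 to 0.50, limma adjusted p = 0.172). Tap2 gave 10.99, 11.03 and 11.04 against 10.91, 10.99 and 10.87. Its groups overlap slightly and it differed by -0.10 (95% interval -0.23 to 0.04). Erap1, which trims peptides in the endoplasmic reticulum, gave 11.33, 11.31 and 11.26 against 11.15, 11.25 and 11.16. Its groups lie just apart (difference -0.11, limma adjusted p = 0.572). The chaperones of the loading complex, Calr, Canx and Pdia3, differed by -0.01, -0.02 and -0.11. Their 95% intervals lie between -0.28 and 0.11.

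None of the 5 measured genes of the immunoproteasome and its activator passed limma, and 0 had an unadjusted p under 0.05. Psmb9 gave 11.93, 11.88 and 11.90 in wild-type cells against 11.91, 12.18 and 12.09 in knockout cells, with overlapping groups (difference 0.16). Psmb8 differed by 0.03 and Psmb10 by -0.14. Psmb10 lay apart, with 11.51, 11.49 and 11.54 against 11.25, 11.48 and 11.39 (limma adjusted p = 0.596). The PA28 activator genes Psme1 and Psme2 differed by -0.06 and -0.10, and Psme2 lay just apart at 13.20, 13.11 and 13.16 against 13.02, 13.11 and 13.03, lower in the knockout. The 17 ordinary proteasome subunits and relatives on the list beside them gave 0 higher and 0 lower by limma, with 0 higher and 1 lower at an unadjusted p under 0.05, and differences from -0.12 to 0.07.

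Of the 33 measured members, 12 lie on chromosome 17, and all of these lie among the 156 measured genes from Tapbp to H2-M3 in the order of the assembly GRCm38.p6. Of these 156 genes, 8 were higher and 1, Tapbp, was lower (5.77%, beside 4.43% of all genes), and their median difference was 0.02; this stretch was chosen after values had been seen. In the class II part, genes of both pathways alternate: H2-Oa, H2-DMa, Psmb9, Tap1, Psmb8, Tap2, H2-Ob, H2-Ab1, H2-Aa, H2-Eb1 and H2-Eb2 follow in this order, with Brd2 between the first pair. Adjacent genes were alike in some places and unlike in others. H2-Ob (0.80) stood between Tap2 (-0.10) and H2-Ab1 (0.51, not passed), and H2-Eb2 (0.53) between H2-Eb1 (0.08) and H2-Ea (-0.16). Tnf and Lta, which encode cytokines of the TNF family, stood side by side and both rose, by 0.49 and 0.97 (limma adjusted p = 0.0193 and 0.0029). H2-Q4 (0.43) stood beside H2-Q5 (0.54, not passed). Tapbp, which fell, stood between Rgl2 (0.27, not passed) and Zbtb22, with Daxx beyond Zbtb22. Zbtb22 and Daxx rose by 0.41 and 0.37 (limma adjusted p = 0.0174 and 0.0246) and lie outside the 156 genes counted.

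**Figure D4:**
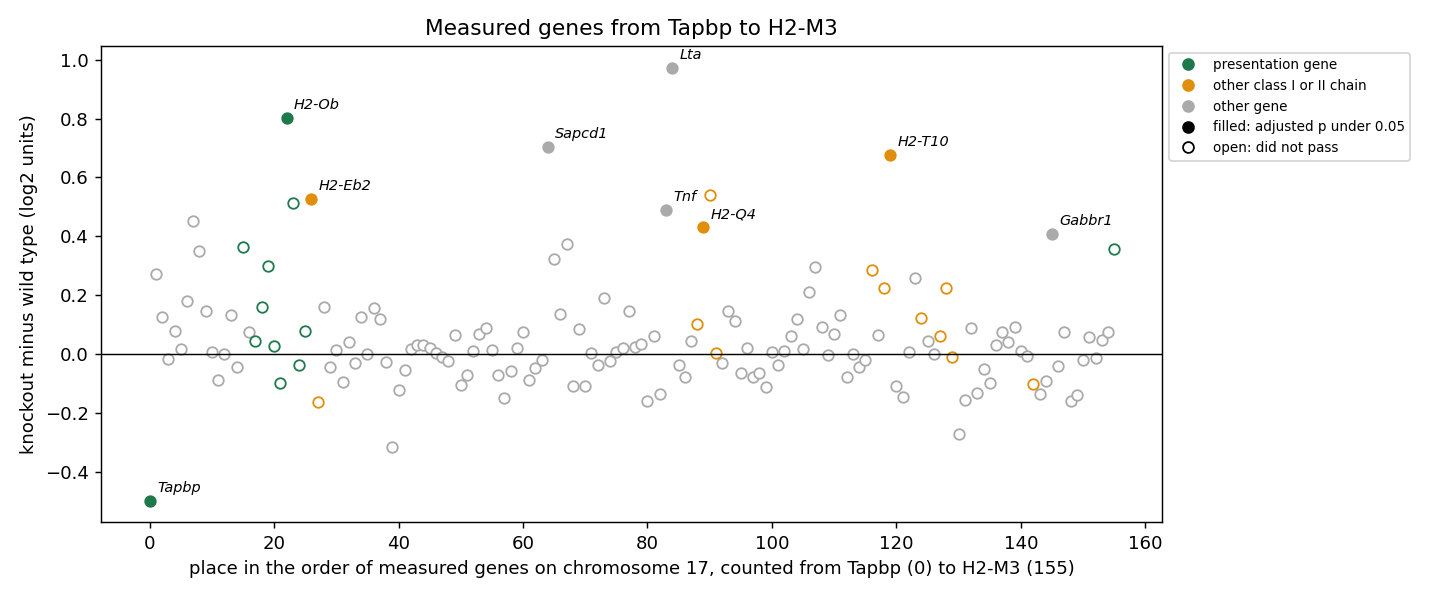
Difference knockout minus wild type (log2 units) of the 156 measured genes from Tapbp to H2-M3, by their place in the order along chromosome 17; green marks presentation genes, orange other class I or II chains and grey other genes, and filled points passed at an adjusted p of 0.05. Of the 8 higher genes, Tnf and Lta are immediate neighbours, and Tapbp is the single gene that passed downward.

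Other chains of the complex outside the member list rose in part. Of 24 listed, 16 were measured, 3 rose, 0 fell and 13 did not pass, with a median difference of 0.17. In the dim range lay 10 of the 16. Over all genes 4.43% passed, 2.42% higher and 2.01% lower. The counts in this list and in the related and marker lists below are not read as shares above or below that background. H2-T10, a nonclassical class I gene, gave 10.88, 10.74 and 10.82 across the wild-type samples, against 11.40, 11.58 and 11.48 across the knockout samples. It rose by 0.68 (1.60-fold, limma adjusted p = 0.00521), and the call held with any 1 sample left out. H2-Q4, of the Qa region, gave 11.04, 10.94 and 10.97 against 11.31, 11.51 and 11.43 and rose by 0.43 (adjusted p = 0.0264). H2-Eb2, a class II beta chain, gave 8.58, 8.59 and 8.83 against 9.05, 9.28 and 9.25 and rose by 0.53 (adjusted p = 0.0486). With 1 sample left out, H2-Q4 passed only without knockout sample 1 (highest adjusted p 0.121) and H2-Eb2 only without wild-type sample 3 (highest 0.19). Class I heavy chain genes such as those of the Q and T regions are near-identical to one another in places, and the probes may not separate them. H2-Ea, which mice of the H2-b haplotype do not transcribe, had means of 6.17 in wild-type cells and 6.01 in knockout cells, within the dim range.

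Of 15 measured genes elsewhere in the class II pathway, Ifi30 rose and 14 did not pass. Ifi30 encodes GILT, the thiol reductase that opens disulfide bonds of antigens in endosomes. It gave 10.85, 10.76 and 11.02 in wild-type cells against 12.26, 12.43 and 12.32 in knockout cells. The groups stood far apart, and the difference of 1.46 ± 0.085 (SE, log2; 2.74-fold, limma adjusted p = 0.00062) passed in every alternative tried. Among 11 measured folding factors of the endoplasmic reticulum, 0 passed limma, and 1 was higher and 1 lower at an unadjusted p under 0.05.

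Among 22 measured upstream regulators, 2 rose, 3 fell and 17 did not pass, beside 2.42% of all genes higher and 2.01% lower. Tyk2, a kinase of the type I interferon receptor, gave 10.67, 10.67 and 10.73 across the wild-type samples, against 9.26, 9.43 and 9.39 across the knockout samples. It fell by 1.33 on the log2 scale (2.51-fold, limma adjusted p = 0.000313), in every alternative tried. Ifngr2, a chain of the interferon gamma receptor, gave 12.47, 12.48 and 12.49 against 12.79, 12.84 and 12.80 and rose by 0.33 (adjusted p = 0.0162). Irf8, an interferon regulatory factor of B and myeloid cells, fell by 0.34 (adjusted p = 0.0315). Prdm1, whose product represses Ciita in plasma cells, fell by 0.28 (adjusted p = 0.0361), from a wild-type mean of 7.30, at the limit of the dim range, to a knockout mean of 7.03 within it; it did not pass with median centring (adjusted p = 0.0518) or a variance trend (0.0966). Socs1, a feedback inhibitor of interferon receptors named beyond the rule for its passing, rose by 0.45 (adjusted p = 0.0416). With 1 sample left out, Irf8, Prdm1 and Socs1 lost their call in all 6 fits (highest adjusted p 0.146, 0.176 and 0.172) and Ifngr2 in 5, passing when knockout sample 1 was absent (highest 0.0935). Irf1, which induces class I genes, and Ifngr1 differed by -0.07 and 0.08 and did not pass.

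Of 12 measured costimulatory and related ligands, Cd80 rose and 11 did not pass. Cd80, the ligand of CD28, gave 6.62, 6.87 and 6.52 in wild-type cells against 7.48, 7.53 and 7.67 in knockout cells. All wild-type values lay in the dim range, and Cd80 rose by 0.89 ± 0.11 (SE, log2; limma adjusted p = 0.00852), losing its call without wild-type sample 1 (adjusted p = 0.0513). Its second probe set differed by 0.17 and did not pass. Cd86 and Cd40, a second CD28 ligand and the receptor of CD40 ligand, each differed by 0.08.

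**Figure D5:**
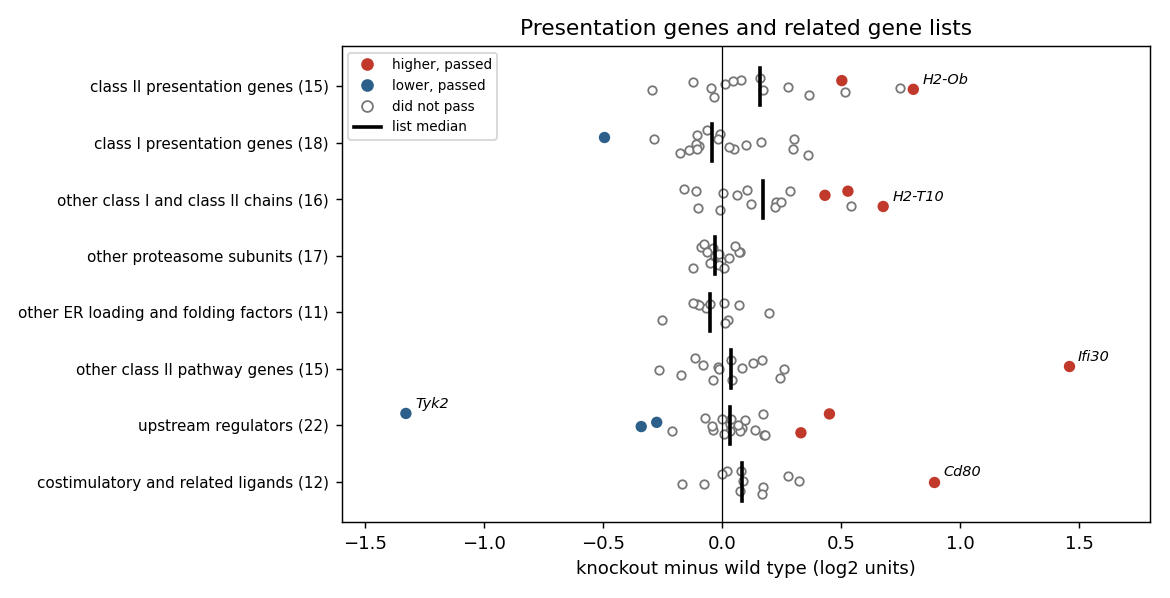
Difference knockout minus wild type (log2 units) of each measured gene in the class II and class I lists and in 6 lists of related genes; red points passed higher, blue points passed lower, open points did not pass, and the black bar is the list's median. Ifi30 and Tyk2 stand farthest from zero, at 1.46 and -1.33.

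Markers of other cell types were read beside these values, since macrophages and dendritic cells carry much class II, Cd74 and cathepsin S. Of 19 measured macrophage and dendritic cell markers, 11 lay in the dim range, among them Csf1r, Adgre1, Itgax, Cd14 and C1qa. The 8 above it were Lyz2, Lyz1, Cd68, Itgam, Marco, Siglech, Zbtb46 and Flt3. The groups of Lyz2 lay apart, lower in the knockout (-0.32), without passing (limma adjusted p = 0.473). In this list 2 were higher by limma, Flt3, which early lymphoid progenitors also carry, by 1.27 (adjusted p = 0.00192) and Itgam by 0.60 (adjusted p = 0.0235), 0 were lower and 17 did not pass, with a median difference of 0.05. At an unadjusted limma p under 0.05, 5 of the 19 were higher, Cd68 (0.34), Fcgr1 (0.20) and Mrc1 (0.31) besides these. At the same limit 1 was lower, Itgax (-0.17), beside 7.2% of all genes higher and 6.25% lower. The log2 of the list's summed signal ran from 11.62 to 11.63 in the wild type and from 11.76 to 11.90 in the knockout. Bright genes weigh most in this sum, and Flt3, among the brighter ones, had the largest difference of the 19. Cd68 was also higher, while Lyz2 was lower. The list's mean log2 signal, in which each gene weighs the same, was also higher in the knockout. It ran from 7.05 to 7.12 in the wild type and from 7.13 to 7.25 in the knockout. Gene by gene, 11 means were higher and 8 lower. The part of this list in the class II values was not tested. Of 11 T and NK cell markers, 8 lay in the dim range, 1 was higher (Zap70, by 0.33) and 0 were lower, with a log2 summed signal of 10.30 to 10.36 in wild-type cells and 10.35 to 10.44 in knockout cells. Of 9 mature B cell and plasma cell markers 1 was higher, Irf4, and 3 were lower, Cxcr5, Xbp1 and Prdm1, with a log2 summed signal of 13.61 to 13.66 in wild-type cells and 13.29 to 13.37 in knockout cells. Directions were mixed, with 5 means higher, 4 lower and a median difference of 0.12. Cd22 (0.38) and the dim Ms4a1 (0.27) lay apart upward, and the dim Fcer2a (-0.18) downward, none of them passing. Bright genes weigh most in such a sum, and Xbp1, the brightest of the 9, differed by -0.54. Cxcr5 had the largest difference of the 9, at -2.79 (limma adjusted p = 0.000511). The list's mean log2 signal was also lower, at 8.25 to 8.38 in knockout cells against 8.54 to 8.59 in wild-type cells. Of the 12 B cell precursor markers, Pax5 was higher, by 0.43, and Dntt and Vpreb2 were lower, at -0.37 and -0.32, with a log2 summed signal of 16.44 to 16.46 in wild-type cells and 16.46 to 16.52 in knockout cells. The part of these lists in the members' values was not tested.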

How the data were processed

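Total RNA of 6 samples was biotin-labelled for Affymetrix arrays, per the labels' protocols. The authors deposited log2 values of 35556 probe sets; the submitters' processing notes name RMA and Partek 6.5, and the range of values (2.58 to 14.7) shows the log2 scale. The table's chip definition, its filters and its build were not given in the sources used here, and it holds no detection calls. The number of arrays limits the precision.

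Genotypes came from the sample titles. Platform annotation gave 21789 probe sets 1 gene symbol, 1621 several and 12146 none, hence 19938 genes, each read on its brightest probe set. Knockout was compared with wild type by limma 3.58.1 in R 4.3.3 (lmFit, eBayes, no covariate, no filter), with Benjamini-Hochberg adjustment over all probe sets at 0.05; 884 genes passed. An exact permutation test of 3 against 3 cannot go below p = 0.10 and was not used. Members and lists were chosen with earlier results of these data known. Values per sample are given for members that passed or whose groups did not overlap, and for the classical chains, Cd74, B2m, Ciita and Nlrc5; in each other list, up to 4 genes that passed are named, smallest p first, and other names there, and the values per sample of H2-DMa, Tap2 and Psmb9, were chosen after values were seen. The fit was repeated with each sample left out, with a block for the sample number, without the dimmest 40% of probe sets, after quantile normalization or median centring, with a robust variance trend, with array weights, and on each gene's probe sets averaged. Promoter windows came from RefSeq's table; no protein table was used here.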

Additional observations from a re-analysis of the deposited data

How the results depend on the processing

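The rise of H2-Ob, the rise of Ifi30 and the fall of Tyk2 passed in all alternatives tried. The number of class II genes called was 2 as reported, 4 without the dimmest 40% of probe sets, with quantile normalization, with a variance trend and with array weights, 6 with the mean of each gene's probe sets (where fewer features are tested), and 2 to 3 with 1 sample left out. The number of class I genes called was 1 as reported, 2 without the dimmest 40%, with quantile normalization and with the mean of probe sets, 3 with a variance trend or array weights, and 0 to 1 with 1 sample left out. Members that passed in some of these settings were H2-M3, H2-Oa, H2-Ab1, Cd74, Nlrc5 and, lower, Lgmn. With the sample number as a block, 544 probe sets passed in place of 1095, with 1 class II gene (H2-Ob) and 0 class I genes; Ctss and Tapbp had limma adjusted p = 0.0566 and 0.108, and of the genes named from the related pathway lists only Ifi30 and Tyk2 passed. The deviations of same-numbered samples correlated at -0.12, 0.02 and 0.26, 2 of 6 samples correlated best with their own number, and the numbers were not taken to pair the samples. Leaving out 1 sample gave 565 to 857 probe sets. The medians of class I and class II kept their sign with 1 sample left out, from -0.06 to -0.03 and from 0.12 to 0.19. H2-Aa, which passed in none of these fits, ran from -0.13 to 0.020 with 1 sample left out and changed sign on leaving out knockout sample 3 (0.020) or, of the wild type, sample 1 (0.020) or sample 2 (0.0044). No scaling moved the median of all genes by more than 0.1. Dim signal limits what can be said of H2-Aa, H2-Ab1, Ciita and Ctsl, and the filter on dim probe sets gives no value for them, nor for Prdm1 and Cd80, so that it covers 11 of the 15 class II genes. The cause of these shifts was not tested.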
